A study of Mus musculus with 8 samples.

Results

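The genes described here are 10 neurofilament, tubulin and microtubule-binding genes of axons (Nefl, Nefm, Nefh, Ina, Prph, Tubb3, Map1b, Mapt, Stmn2 and Stmn4), taken by symbol from a table of 24860 genes. All 10 were in the table, and all 10 passed the filter for testing. RNA sequencing measured them in 8 libraries of mouse retina. 4 libraries carry the label AAV2-shCX36, which names an AAV2 vector (an adeno-associated virus) and a hairpin RNA directed at connexin 36, a gap junction protein that couples retinal neurons. The other 4 carry the label AAV2-scramble, the same vector type with a control hairpin. Both groups therefore received a virus. The labels name retina as tissue and RGCs (retinal ganglion cells) as cell type, and mention no sort, strain, age, injury or time after injection. The series text speaks of different mice without assigning them to libraries, so p-values measure the spread between libraries, which may be partly technical.

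Neurofilaments are the intermediate filaments of neurons. In the central nervous system they are copolymers of a light (Nefl), a medium (Nefm) and a heavy subunit (Nefh) with alpha-internexin (Ina), whereas peripherin (Prph) is the partner typical of peripheral neurons. They fill large axons and set their calibre, and the long tails of the medium and heavy subunits are heavily phosphorylated in mature axons. Microtubules run beside them: Tubb3 encodes the neuronal beta-III tubulin, Map1b and Mapt (tau) encode proteins that bind along microtubules, and Stmn2 and Stmn4 encode stathmins, which bind free tubulin dimers and take part in microtubule turnover. In the retina, neurofilaments are best known from ganglion cells, whose axons form the optic nerve, and from horizontal cells.

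Promoter windows from 250 bases before to 50 bases after the start of transcription were matched by symbol in RefSeq (GRCm38.p6) for 4 of the 10 genes, Ina, Prph, Tubb3 and Map1b. 3 of them are shown because they set the central filament gene Ina and the tubulin gene Tubb3, both abundant here, beside Prph, which was the least abundant of the 10. Capitals mark matches on either strand to the TATA box TATAAA, the CCAAT box CCAAT, the GC box GGGCGG and the E-box CACGTG, none of which overlap another here. The Ina window is chr19:47014431-47014730, plus strand, the Prph window is chr15:99054924-99055223, plus strand, and the Tubb3 window is chr8:123411303-123411602, plus strand. The Prph window is set at 99055174, the start of the gene in GENCODE. In RefSeq the Prph gene begins upstream, at 99053579, so its positions below refer to an internal start of that model. The Ina and Tubb3 windows are set at the RefSeq starts, 47014681 and 123411553. In GENCODE Ina starts at 47014698, and Tubb3 starts upstream, at 123411424, within the window. The Tubb3 CCAAT box and the second Tubb3 GC box thus lie after the GENCODE start.
Ina: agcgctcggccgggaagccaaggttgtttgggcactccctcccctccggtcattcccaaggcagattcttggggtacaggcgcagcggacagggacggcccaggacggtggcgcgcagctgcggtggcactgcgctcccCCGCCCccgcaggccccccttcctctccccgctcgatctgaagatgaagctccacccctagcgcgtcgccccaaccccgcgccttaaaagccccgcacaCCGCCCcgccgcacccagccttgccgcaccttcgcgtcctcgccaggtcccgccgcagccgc
Prph: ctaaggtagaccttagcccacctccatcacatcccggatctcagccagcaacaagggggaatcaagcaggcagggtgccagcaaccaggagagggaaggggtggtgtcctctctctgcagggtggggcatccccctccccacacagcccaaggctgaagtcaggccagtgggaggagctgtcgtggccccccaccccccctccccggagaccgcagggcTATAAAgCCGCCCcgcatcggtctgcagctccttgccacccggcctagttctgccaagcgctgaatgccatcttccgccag
Tubb3: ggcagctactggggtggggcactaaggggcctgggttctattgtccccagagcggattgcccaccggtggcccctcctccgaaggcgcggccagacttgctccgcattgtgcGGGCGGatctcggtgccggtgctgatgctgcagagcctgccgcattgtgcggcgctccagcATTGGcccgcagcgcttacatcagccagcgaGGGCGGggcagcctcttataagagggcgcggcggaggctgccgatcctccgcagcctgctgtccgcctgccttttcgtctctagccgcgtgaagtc
The Prph window held a TATA box that begins 31 bases before the start, and neither the Ina nor the Tubb3 window held that motif. The Map1b window, not printed, held one 99 bases before its start. Among 32851 windows of 300 bases in the same table, 13.6% held it on either strand. GC boxes stood in all 3 windows, 2 each in Ina and Tubb3 and 1 in Prph, and in 35.7% of all windows. A CCAAT box stood in the Tubb3 window alone of the 3 (37.4% of all windows), and an E-box in none of them (7.15% of all windows). The GC content was 71.7% in Ina, 67.3% in Tubb3 and 64.7% in Prph, against a median of 52.7% over all windows.

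The depth behind these values was high. The FPKM (fragments counted, scaled to transcript length and to the library's total) could be turned back into whole fragments, which gave 35879483 to 38954877 counted fragments per library. Gjd2, the connexin 36 gene, had 38.7, 35.9, 17.4 and 18.2 FPKM in AAV2-scramble 1 to 4 and 17.0, 14.0, 14.6 and 16.6 in AAV2-shCX36 1 to 4. The groups did not overlap, but AAV2-scramble 3 and 4 lay close to the AAV2-shCX36 libraries, and the log2 difference of -0.70 ± 0.25 did not pass (limma adjusted p = 0.148). AAV2-scramble 1 and 2 stood apart from the other 6 libraries. Their 10 oligodendrocyte markers had a mean log2(FPKM + 1) of 2.09 and 3.40, against 0.69 to 0.75 elsewhere, and their 8 microglia markers 6.19 and 6.16, against 4.13 to 5.23. Markers of retinal bipolar neurons differed too, with a mean of 4.58 and 4.72 over 8 genes, against 3.21 to 3.92 elsewhere. AAV2-shCX36 1 and 4 stood apart in 6 lens markers, with a mean log2 level of 3.02 and 3.90 against 0.09 to 1.61 in the other 6 libraries. None of these markers was at 0 in all libraries. Ganglion cell markers were present (13 of 13 in the table, summed level 1491 to 2697 FPKM), and so were 8 rod markers (863 to 2066 FPKM) and 8 cone markers (1660 to 4395 FPKM), so the libraries hold RNA of other retinal cells than those labelled. The 8 interferon response genes all rose, with a summed level of 662 to 1175 FPKM after AAV2-shCX36 against 63.5 to 227. The part of these differences in the results below was not tested. In bulk RNA, fewer cells of a type and less RNA per cell cannot be told apart.

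Among the 10 genes the stathmin gene Stmn4 rose after AAV2-shCX36, and no gene fell past the threshold, an adjusted p under 0.05 over all 12858 genes tested in limma with Benjamini-Hochberg adjustment. Over all genes 2.24% passed as higher and 2.52% as lower. 9 of the 10 genes had a higher mean log2 level and Nefh a lower one, where 6741 of all 12858 genes tested were higher. The median difference was 0.24 against 0.01 over all genes. At an unadjusted p under 0.05 there were 3 higher, Nefm, Mapt and Stmn4, where 12.3% of all genes were higher, and 1 lower, Nefh, where 10.3% were lower. The groups did not overlap for Stmn4 alone, which was above (8.85% of all genes), and for none below (7.05% of all genes). When limma with voom weights was run on the recovered fragments, an alternative added after seeing the data, Stmn4 again passed (adjusted p = 0.0483) and no other member did, against 1.97% of all genes higher and 2.31% lower. Its call was lost in limma with median-of-ratios scaling (adjusted p = 0.0665), with no variance trend (0.0625), with no filter on low values (0.0880) and with the replicate number as a block (0.101).

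**Figure D1:**
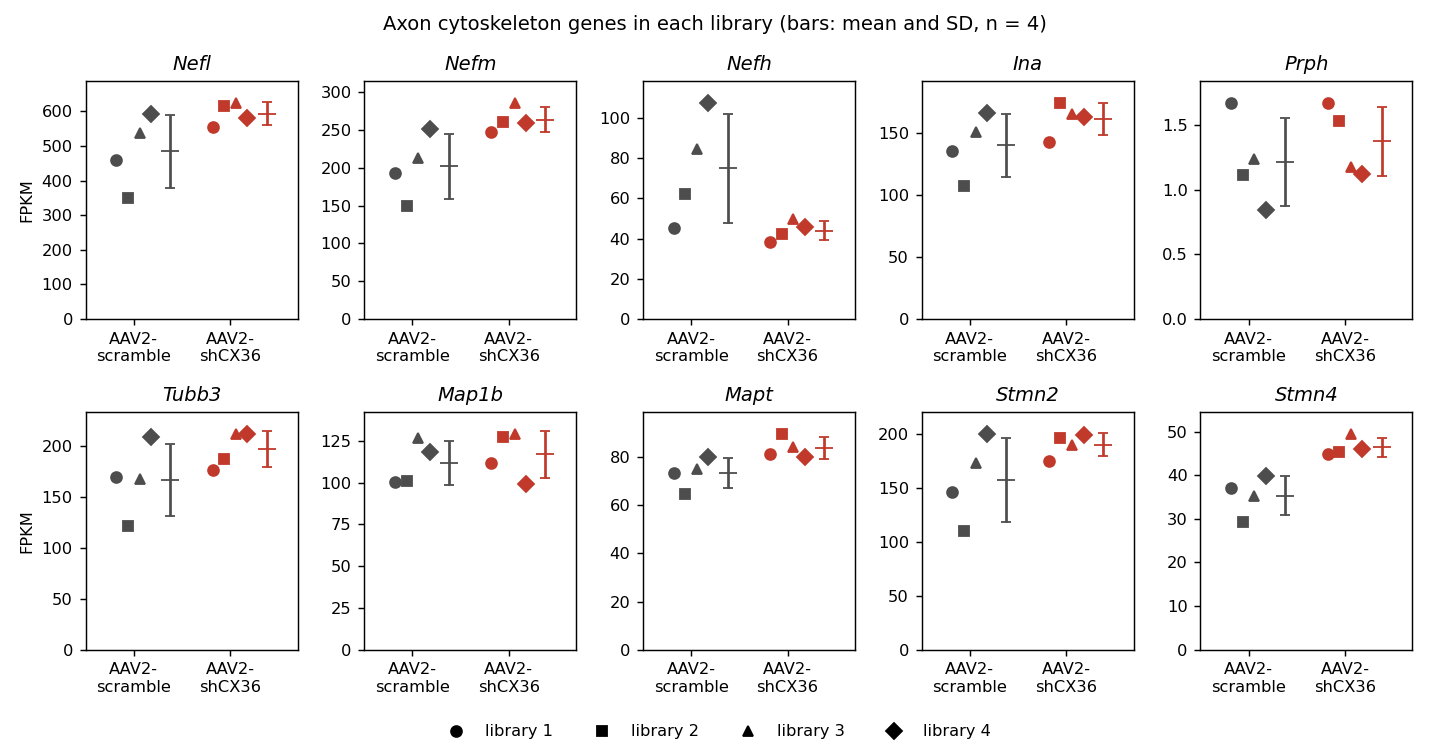
FPKM (vertical axes, from 0) of the 10 genes in the 4 AAV2-scramble (grey) and 4 AAV2-shCX36 (red) libraries, with marker shapes for library numbers and bars for the mean and SD. Stmn4 lies between 44.8 and 49.6 FPKM after AAV2-shCX36, above all 4 controls, while Nefh lies between 38.5 and 49.7 FPKM, below all controls but AAV2-scramble 1.

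Levels per length were ordered in the same way in both groups, apart from Nefh. Nefl was the most abundant in each library, with no overlap with Nefm, the second. Tubb3, Stmn2, Ina and Map1b followed on mean level. In the controls the ranges of neighbours from Nefm down to Mapt overlapped, and in AAV2-shCX36 only those of Tubb3 and Stmn2 and of Stmn4 and Nefh did. Within single libraries the order was steadier: Nefm exceeded Tubb3, Stmn2 exceeded Ina and Ina exceeded Map1b in 4 of 4 libraries of both groups. Nefh ranked 7th in the controls, level with Mapt, which it exceeded in 2 of 4 libraries, and 9th after AAV2-shCX36, below Stmn4 in 3 of 4 libraries. Prph ranked last in each library.

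The light subunit Nefl (chromosome 14, 68083863 to 68089095, plus strand, GRCm38) had 460, 348, 537 and 593 FPKM in AAV2-scramble 1 to 4. It had 553, 616, 625 and 579.6 FPKM in AAV2-shCX36 1 to 4. The groups overlapped through AAV2-scramble 4, and AAV2-scramble 2 was the lowest library. The means were 594 ± 33.3 (SD, n = 4) against 485 ± 106 FPKM, a log2 difference of 0.32 ± 0.15 (SE) that did not pass (limma adjusted p = 0.254). At 42251 to 78233 fragments per library, counting error is far below the spread among the controls.

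The medium subunit Nefm (chromosome 14, 68082590 to 68124846, minus strand) had nearly the same order of libraries as Nefl. Its control values were 194, 149, 214 and 252 FPKM, and its AAV2-shCX36 values were 247, 261, 286 and 260.0. Only AAV2-shCX36 1 fell below the highest control, AAV2-scramble 4. The log2 difference of 0.41 ± 0.14, with a 95% interval from 0.09 to 0.73, did not pass (limma adjusted p = 0.140). In GENCODE vM21 a long Nefm model spans Nefl on the opposite strand, and the RefSeq model (68119545 to 68125004) does not. Only whole gene spans were compared, and whether exons of the 2 genes overlap was not examined. The sources do not state a strand setting for the counting. Without one, reads from any exon bases shared under the long model could not be told apart.

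Alpha-internexin, the central partner encoded by Ina (chromosome 19, 47014698 to 47025327, plus strand), had 136, 107, 151 and 167 FPKM in the controls and 143, 175, 165 and 163 after AAV2-shCX36. AAV2-scramble 1 and 2 were the lowest, and the other 6 libraries lay between 143 and 175 FPKM. The log2 difference was 0.22 ± 0.13 (limma adjusted p = 0.347). The 5′ end of Ina overlaps Nt5c2 on the opposite strand, a gene at 16.1 FPKM in the controls and 18.0 after AAV2-shCX36.

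The heavy subunit Nefh (chromosome 11, 4938754 to 4948064, minus strand) had a difference of the opposite sign. It had 45.5, 62.3, 84.8 and 108 FPKM in AAV2-scramble 1 to 4 and 38.5, 42.2, 49.7 and 45.7 FPKM in AAV2-shCX36 1 to 4. The controls spread over 2.37-fold and the AAV2-shCX36 libraries over 1.29-fold, and the groups overlapped through AAV2-scramble 1 alone. The means were 44.0 ± 4.80 against 75.1 ± 27.1 FPKM, or 58.6% of the control mean. The log2 difference of -0.69 ± 0.23, with a 95% interval from -1.21 to -0.18, did not pass over all genes (limma adjusted p = 0.123). Without AAV2-scramble 1 it was -0.90 and passed (adjusted p = 0.0300). With the other single libraries left out, the adjusted p was 0.119 to 0.264. With 5860 to 16764 fragments per library, counting error was at most 1.31% of a value.

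The ratios of Nefh to Nefm and to Nefl did not overlap between the groups, where the level of Nefh alone did. The ratio of Nefh to Nefm within a library was 0.235, 0.418, 0.397 and 0.428 in AAV2-scramble 1 to 4, and 0.156, 0.161, 0.174 and 0.176 in AAV2-shCX36 1 to 4. All AAV2-shCX36 ratios lay below all control ratios, also below that of AAV2-scramble 1, and their mean was 45.1% of the control mean (0.167 ± 0.010 against 0.369 ± 0.091). Against Nefl the ratio of Nefh was 0.0741 ± 0.0059 compared with 0.154 ± 0.038, again without overlap. The ratio of Nefm to Nefl moved little by comparison, at 0.444 ± 0.014 against 0.418 ± 0.014, and the groups overlapped. Of the summed FPKM of Nefl, Nefm, Nefh and Ina, Nefh made up 5.45%, 9.34%, 8.59% and 9.63% in the controls and 3.92%, 3.85%, 4.41% and 4.36% after AAV2-shCX36. These ratios do not depend on the scaling between libraries. No test between the groups was made on them because the genes were chosen with these levels known. How many other genes have ratios to Nefm or Nefl without overlap was not counted. Relative to the ganglion cell marker mean, Nefl and Nefm differed little between the groups (0.05 and 0.13 on the log2 scale). On that scale 17.9% of all genes tested lay below without overlap, so such a gap may not be particular to Nefh.

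**Figure D2:**
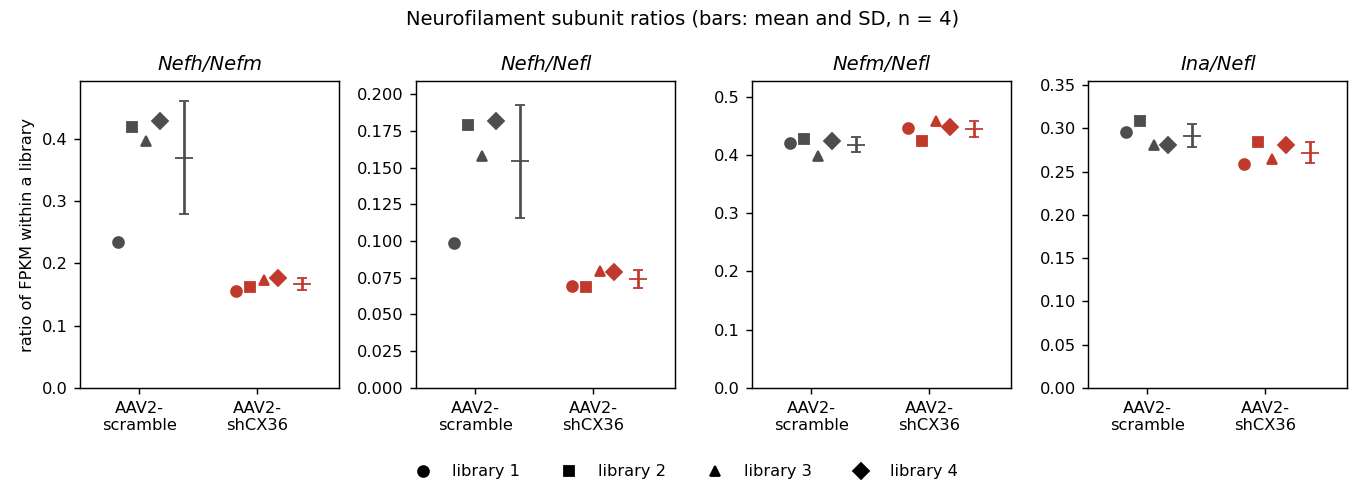
Ratios of FPKM between neurofilament genes within each library (vertical axes, from 0), with bars for the mean and SD of 4 libraries. Nefh to Nefm lies between 0.156 and 0.176 after AAV2-shCX36 and between 0.235 and 0.428 in the controls, while Nefm to Nefl and Ina to Nefl overlap between the groups. How often other genes lack overlap in such a ratio was not counted.

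Prph, the gene of the peripheral partner (chromosome 15, 99055174 to 99058978, plus strand), was close to the filter of 1 FPKM. It had 1.67, 1.11, 1.23 and 0.841 FPKM in the controls and 1.67, 1.53, 1.17 and 1.12 FPKM after AAV2-shCX36. These values rest on 77 to 150 fragments, with a counting error of 8.16% to 11.4%, and the ranges of the groups overlapped over most of their length. The log2 difference was 0.11 ± 0.14 (limma adjusted p = 0.699). The value of 0.841 FPKM has a 95% Poisson counting interval from 0.664 to 1.05 FPKM, and the 1.67 FPKM of AAV2-scramble 1 an interval from 1.41 to 1.96, so these 2 controls differed by more than counting error.

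Tubb3 (chromosome 8, 123411424 to 123422015, plus strand) had 169, 121, 168 and 209 FPKM in the controls and 177, 187, 212 and 212 after AAV2-shCX36. AAV2-scramble 2 was again the lowest library, and AAV2-scramble 4 lay within the range of the AAV2-shCX36 libraries. A readthrough model, Gm20388, spans Tubb3 on the same strand in GENCODE vM21. The log2 difference of 0.26 ± 0.15 did not pass (limma adjusted p = 0.327).

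Map1b (chromosome 13, 99421446 to 99516540, minus strand), whose product is prominent in growing axons, had 100.5, 100.9, 127 and 119 FPKM in the controls and 112, 127, 129 and 99.5 after AAV2-shCX36. The ranges nearly coincided, with a log2 difference of 0.06 ± 0.11 and a 95% interval from -0.18 to 0.31 (limma adjusted p = 0.764). Mapt, the tau gene (chromosome 11, 104231390 to 104332090, plus strand), had 73.6, 64.8, 75.1 and 80.2 FPKM against 81.2, 89.8, 84.2 and 80.1. The highest control reached the lowest AAV2-shCX36 library, 80.2 against 80.1 FPKM. The log2 difference of 0.19 ± 0.07 did not pass over all genes (limma adjusted p = 0.171).

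Stmn2 (chromosome 3, 8509360 to 8561606, plus strand) had 146, 110.3, 173 and 201 FPKM in the controls and 176, 196, 190.0 and 199 after AAV2-shCX36. The highest library of all was a control, AAV2-scramble 4, and the lowest were AAV2-scramble 2 and 1. The log2 difference was 0.30 ± 0.16 (limma adjusted p = 0.298). Its relative Stmn4 (chromosome 14, 66344296 to 66361680, plus strand) had 37.0, 29.2, 35.3 and 39.8 FPKM in the controls and 44.8, 45.2, 49.6 and 46.0 after AAV2-shCX36. All 4 AAV2-shCX36 libraries exceeded all 4 controls, at 131% of the control mean. The log2 difference was 0.39 ± 0.09 with an adjusted p of 0.0435 in limma, close to the threshold. Leaving out AAV2-scramble 1 or 3 or any single AAV2-shCX36 library raised the adjusted p to between 0.0702 and 0.123, with log2 differences between 0.36 and 0.42. Without AAV2-shCX36 1 and 4 the difference was 0.42 (adjusted p = 0.229). The ratio of Stmn4 to Stmn2 overlapped between the groups, at 0.244 ± 0.016 against 0.230 ± 0.034.

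With 2 controls left in each case, the 2 pairs of controls gave different calls. Without AAV2-scramble 1 and 2, Nefh was called lower, with a log2 difference of -1.11 ± 0.12 (limma adjusted p = 0.00277), and Stmn4 was called higher, at 0.30 ± 0.07 (adjusted p = 0.0414). In that comparison 4.31% of all genes passed as higher and 3.02% as lower. Nefl, Ina, Tubb3 and Stmn2 then had differences of 0.07, 0.02, 0.07 and 0.03, Nefm one of 0.18 (adjusted p = 0.228), and Map1b one of -0.077. Without AAV2-scramble 3 and 4, 7 of the 10 passed as higher, where 11.9% of all genes did, and none as lower, where 14.8% did. The 7 were Nefl, Nefm, Ina, Tubb3, Mapt, Stmn2 and Stmn4, with log2 differences of 0.56, 0.63, 0.41, 0.45, 0.27, 0.58 and 0.48. Nefh then had a difference of -0.28 (adjusted p = 0.164). Both comparisons used the same 4 AAV2-shCX36 libraries. AAV2-scramble 2 alone carried much of the higher means: without it the log2 difference was 0.17 for Nefl, 0.27 for Nefm, 0.10 for Ina, 0.12 for Tubb3 and 0.14 for Stmn2. With single libraries left out, Map1b ranged from 0.01 to 0.14 and Prph from 0.02 to 0.20.

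**Figure D3:**
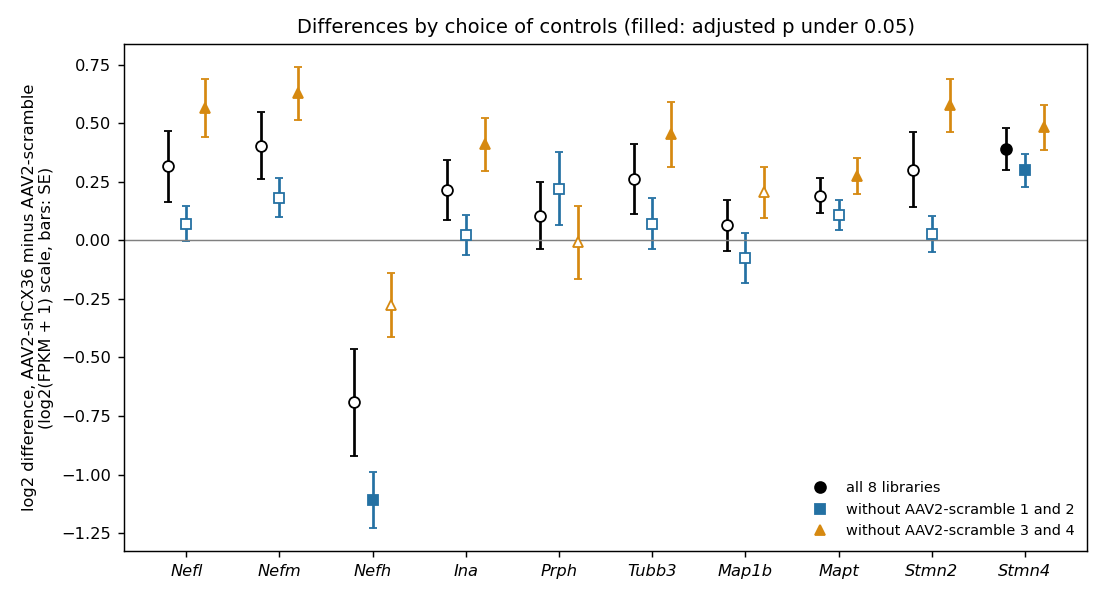
Log2 differences with SE (vertical axis, log2(FPKM + 1) scale) of the 10 genes with all libraries (black circles), without AAV2-scramble 1 and 2 (blue squares) and without AAV2-scramble 3 and 4 (orange triangles), filled where the adjusted p is under 0.05. Stmn4 is filled in all 3, Nefh only at -1.11 without AAV2-scramble 1 and 2.

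Marker lists varied over the same libraries. The mean log2 level of the 13 ganglion cell markers was 6.40 and 6.08 in AAV2-scramble 1 and 2, 6.53 and 6.69 in AAV2-scramble 3 and 4, and 6.64 to 6.76 after AAV2-shCX36, with AAV2-scramble 2 lowest as for Nefl, Stmn2 and Tubb3. Of these 13 markers 11 were higher and 2 lower, with a median of 0.33, and none passed in limma. At an unadjusted p under 0.05, 5 were higher and 1 lower, where 12.3% and 10.3% of all genes were. With the ganglion marker mean of its library subtracted, Nefl differed by 0.05, Stmn2 by 0.03, Tubb3 by -0.01, Nefm by 0.13 and Stmn4 by 0.12 on the log2 scale between the groups, and each of these overlapped. Map1b differed by -0.21, Prph by -0.17, Mapt by -0.08 and Ina by -0.06, also with overlap. Nefh differed by -0.96 on that scale, with the controls between -0.86 and 0.07 and AAV2-shCX36 between -1.34 and -1.05. On that scale the groups did not overlap for 1 of the 10 below (Nefh) and for none above, where 17.9% of all genes tested lay below without overlap and 1.14% above. A count of 1 in 10 below is thus no more than the share over all genes.

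Markers of horizontal cells and photoreceptors were lower after AAV2-shCX36. The 8 horizontal cell markers had a summed level of 145 to 204 FPKM against 229 to 242 in the controls. The most abundant, Calb1 (mean 64.7 against 91.1 FPKM) and Septin4 (72.8 against 94.7), weigh most in that sum. 7 of the 8 were lower, 2 of them past the threshold (Calb1 and Tfap2b), and none was at 0. Over all genes tested, 6117 of 12858 were lower and 2.52% were called lower. The 8 rod markers were all lower, with 863 to 1150 against 1432 to 2066 FPKM summed and 6 past the threshold, and the 8 cone markers were all lower, with 1660 to 2568 against 2901 to 4395 FPKM and 3 past the threshold. AAV2-scramble 1, the control with the least Nefh, also had the lowest rod marker mean among the controls, at 6.84 against 7.07 to 7.39. Its cone marker mean was the lowest too, at 7.83 against 8.09 to 8.42. AAV2-scramble 4, the control with the most Nefh, had the highest rod marker mean (7.39). Its cone marker mean of 8.09, however, was below those of AAV2-scramble 2 and 3 (8.25 and 8.42). The 8 Müller glia markers also had 5 members past the threshold as lower, with a median of -1.03. Their mean was not lowest in AAV2-scramble 1, at 5.21 against 4.79 and 5.02 in AAV2-scramble 3 and 4. The part of these cells in the Nefh values was not tested.

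**Figure D4:**
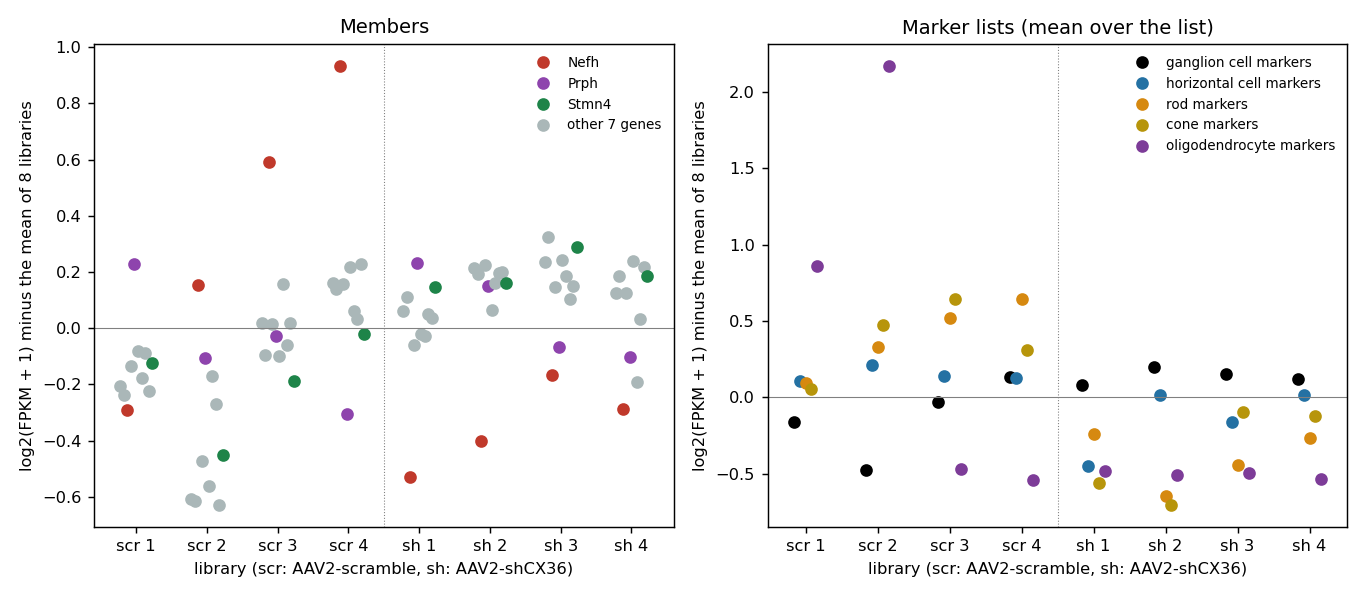
Left, log2(FPKM + 1) of the 10 genes in each library minus the gene's mean over 8 libraries, with Nefh, Prph and Stmn4 in colour. Right, the same for the mean of 5 marker lists. Nefh is highest in AAV2-scramble 3 and 4 and low in all AAV2-shCX36 libraries, and 7 other genes are lowest in AAV2-scramble 2. Prph is lowest in AAV2-scramble 4 and Map1b in AAV2-shCX36 4.

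Genes with the most similar profile over the 8 libraries were found by the root-mean-square difference of mean-centred log2(FPKM + 1). Nefl was closest to Ube2ql1 (0.0294) and Camk2n2 (0.0307). Nefm was closest to Stk32c (0.0443), Camk2n2 (0.0451) and the calpain gene Capn5 (0.0455). Nefh had no neighbour as near: its closest were Gsc2 (0.155), Nxnl1 (0.161), the gene of rod-derived cone viability factor, and Trak2 (0.168), an adaptor gene of mitochondrial transport. Trak2 had 32.9, 39.3, 47.6 and 54.2 FPKM in the controls and 26.1 to 27.3 after AAV2-shCX36. Prph, at its low level, was closest to Dbr1 (0.06), Lig1 (0.0749) and Zfp959 (0.0761).

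Other genes of the axonal cytoskeleton changed singly and in both directions, to be read against the 2.24% of all genes called higher and 2.52% called lower. Of 11 other tubulin genes tested none passed in limma, 1 had an unadjusted p under 0.05, and the median log2 difference was 0.11. Tubb6 had 2.22 ± 0.146 against 1.04 ± 0.831 FPKM (adjusted p = 0.140) and the gamma-tubulin gene Tubg1 25.8 ± 2.61 against 22.8 ± 2.34 (adjusted p = 0.311). Of 35 other microtubule-binding genes 1 rose and none fell, with a median of 0.04. It was Map7d1, which had 72.9 ± 0.992 FPKM against 60.3 ± 2.40 (adjusted p = 0.0213). Map2, the microtubule protein of dendrites, had 11.8 ± 0.427 against 14.3 ± 0.974 FPKM (adjusted p = 0.0623).

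Of 25 transport motor genes, with a median of 0.13, none rose and the kinesin gene Kif21b fell, from 27.5 ± 4.35 to 19.7 ± 1.01 FPKM (adjusted p = 0.0434). The dynein chain gene Dync1li2 had 30.8 ± 0.790 against 27.0 ± 1.04 FPKM (adjusted p = 0.0797). Of 16 spectrin, ankyrin and axon membrane genes, also with a median of 0.13, Cntnap1, which encodes the paranodal protein Caspr, rose from 44.0 ± 4.08 to 55.1 ± 1.79 FPKM (adjusted p = 0.0400) and none fell.

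Among 22 kinase and protease genes that act on neurofilaments and tau, with a median of 0.08, 2 rose and none fell. Both encode calpains, calcium-activated proteases that cleave neurofilaments: Capn1 rose from 13.3 ± 1.20 to 18.7 ± 1.68 FPKM (adjusted p = 0.0203) and Capn2 from 19.1 ± 1.20 to 24.2 ± 1.07 (adjusted p = 0.0226). Of 8 other intermediate filament genes 2 rose and 1 fell, with a median of -0.04. Krt18, a keratin gene, fell from 24.7 ± 4.42 to 12.9 ± 2.05 FPKM (adjusted p = 0.0140), whereas Synm (synemin) rose from 6.65 ± 0.377 to 8.88 ± 0.973 (adjusted p = 0.0434) and Lmna (lamin A/C of the nucleus) from 9.35 ± 0.268 to 11.5 ± 0.746 (adjusted p = 0.0472).

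**Figure D5:**
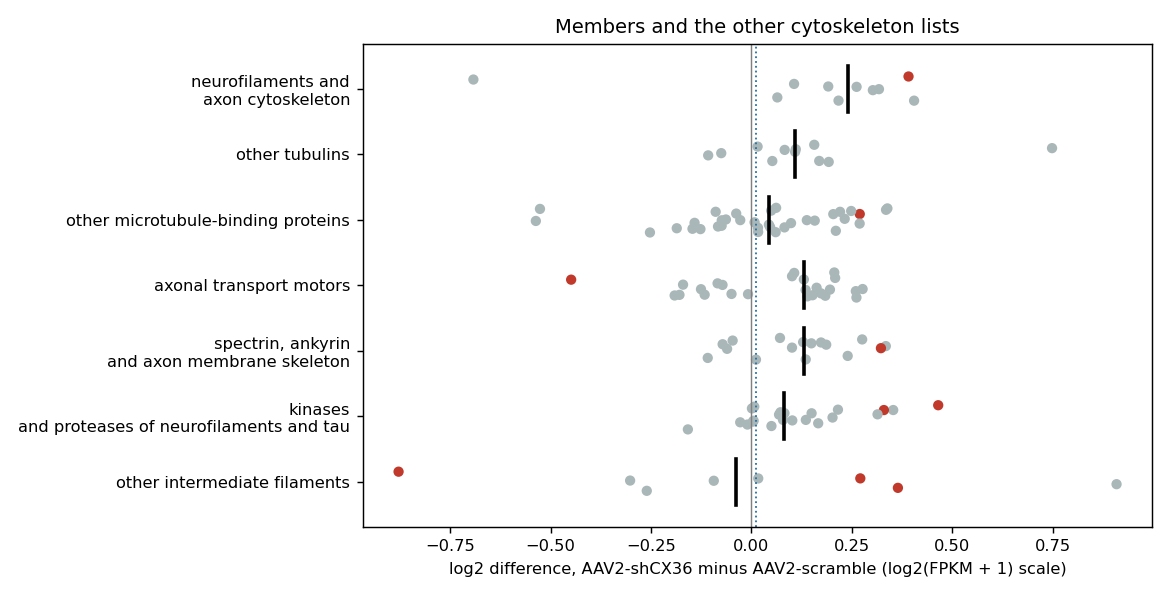
Log2 differences (horizontal axis, AAV2-shCX36 minus AAV2-scramble) of the 10 genes and of 6 lists of other cytoskeleton genes, red where the adjusted p is under 0.05, with black bars at each list's median and a dotted line at the median of all genes, 0.01. The median of the 10 genes is 0.24, and Nefh and Krt18 lie farthest to the left, at -0.69 and -0.88.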

How the data were processed

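The authors deposited FPKM for 24860 gene symbols in 8 libraries, a retinal RNA extract read as 150 bp pairs. The submitters' processing notes name fastp, HISAT2, HTSeq, R 3.2.0 and DESeq2 and the build GRCm38 (mm10); strand use and annotation are not given in the sources used here. Columns were matched to samples by name (0 unmatched), and groups came from the titles.

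Counted fragments per library and the length behind each gene's FPKM were recovered from the spacing of values. Whole fragments (tolerance 0.05 in all libraries) were found for 99.99% of tested genes, and they summed to 99.893% to 99.91% of the recovered totals. Counting intervals and errors cover counting error only.

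The filter kept genes whose mean reached 1 FPKM, and these were tested on log2(FPKM + 1) with lmFit and eBayes with trend in limma 3.58.1 (R 4.3.3), Benjamini-Hochberg adjusted over 12858 genes. Fold changes on that scale understate those of low genes. No count model could be the main test, since the deposited unit is FPKM. The test was checked on simulated data. Replicate numbers did not pair the libraries (correlations of deviations 0.128, -0.302, 0.226 and -0.269).

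The members, gene lists and alternatives were chosen with earlier results of these data known. Named genes were all members, in each list the called genes (or the 2 with the smallest p), and the 3 nearest profiles of Nefl, Nefm, Nefh and Prph; 2 genes that this rule names are not reported here. Tusc5 and Sept4 were matched through their current symbols, and Myh1 was not matched. The lists whose group differences are not given above had these median log2 differences and counts past the threshold: amacrine -0.02 (1 higher of 6), bipolar -0.31 (0 of 8), oligodendrocyte -1.22 (0 of 6), microglia -1.14 (1 lower of 8), astrocyte -0.0017 (0 of 5), vessel 0.23 (0 of 6) and lens 2.73 (0 of 4). Over all genes 2.24% passed as higher and 2.52% as lower. Of the pigment epithelium and Schwann cell lists 1 gene each was tested, of the muscle list none. Tables and figures used Python 3.11.15, pandas 2.3.3, numpy 2.4.6, scipy 1.17.1 and matplotlib 3.10.9.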

Additional observations from a re-analysis of the deposited data

Results flagged for a closer look

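The ratio of Nefh to Nefm in AAV2-scramble 1 was 0.2348, and its gap to the nearest of the other 3 controls (0.397 to 0.428) was 0.837 of the range of the 4, above the limit of Dixon's test. Of 40 groups of 4 values examined (10 genes, Gjd2 and 9 ratios, in each group of libraries) this was the only flag, where chance flags about 1 group in 20. Without this library the control ratios lie further from the AAV2-shCX36 ratios, which reach at most 0.176.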

How the results depend on the processing

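The single member called higher, Stmn4, kept its direction in all 23 alternatives and its call with pseudocounts of 0.1 and 0.5, a filter of 5 FPKM, quantile normalization, TPM scaling, robust fitting, library weights, voom and each omitted pair of controls. The count of members called higher was 0 with no filter, with median-of-ratios scaling, with no variance trend and with AAV2-shCX36 1 and 4 left out, was 7 without AAV2-scramble 3 and 4, and ranged from 0 to 2 with single libraries left out (2 without AAV2-scramble 4, Nefm and Stmn4). The count called lower was 1 without AAV2-scramble 1 and 2 and 0 to 1 with single libraries left out (1, Nefh, without AAV2-scramble 1). Over all genes, 288 higher and 324 lower became 177 and 134 with no filter, 554 higher without AAV2-scramble 1 and 2 (388 lower), 1536 and 1905 without AAV2-scramble 3 and 4, 76 and 30 when AAV2-shCX36 1 and 4 were dropped, and 101 to 573 and 70 to 589 with single libraries left out. 2 members changed sign, Prph to -0.0076 without AAV2-scramble 3 and 4 and Map1b to -0.077 without AAV2-scramble 1 and 2. Fewer libraries were fitted where some were left out; for the other settings the cause was not tested.

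With the replicate number as a block, 107 genes were higher, 57 lower, 0 members were higher and Stmn4 had an adjusted p of 0.101. The number did not pair the libraries: 2 of 4 same-number correlations were negative. Deviations of AAV2-shCX36 1 and 4 correlated positively with those of AAV2-scramble 1 and 2 (0.128 to 0.271). Those of AAV2-shCX36 2 and 3 did so with AAV2-scramble 3 and 4 (0.203 to 0.247). All other correlations were negative. Depth limits Prph, at 77 to 150 fragments, more than any other member.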
